A study of Mus musculus with 8 samples.

Results

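Secreted inflammatory chemokines and cytokines are the signals through which fibroblasts call in and direct immune cells. A list of 39 such mouse genes was followed, 15 chemokines, 13 interleukins and interleukin receptors, 8 growth factors of immune cells and other cytokines, and 3 acute phase genes. Members were found by their symbol in the array annotation, and a gene with several probe sets was represented by the one with the highest mean signal. Il1rl1, the receptor of interleukin 33, had no probe set under 1 symbol, so 38 of 39 genes were measured, of 18193 genes in all. RNA came from mouse adult fibroblasts (MAFs) isolated from peritoneal fascia of Rb loxP/loxP mice, with 4 populations and 2 Affymetrix mouse genome arrays of each. Cre Recurred cells carried adenoviral GFP-Cre, which deletes an exon of Rb, and had grown out after 24 h of cisplatin (CDDP) followed by fresh media. Cre Naïve cells carried GFP-Cre without CDDP, GFP Recurred cells carried adenoviral GFP alone with the same CDDP exposure and outgrowth, and GFP Naïve cells carried GFP without CDDP. All populations, controls included, also carried retroviral p53DD, a dominant negative p53, and were selected pools rather than single clones. The arrays are labelled as biological replicates and the methods speak of at least 2 independently generated populations, but which cultures shared a mouse or an infection is not given in the sources used here.

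Chemokines are small secreted proteins that bind receptors on leukocytes and guide them along a gradient, with CC chemokines acting mostly on monocytes, eosinophils and lymphocytes and many CXC chemokines on neutrophils or on T cells. Interleukins and colony-stimulating factors set the survival, growth and activation of these cells, and acute phase proteins bind microbes and their products. In fibroblasts many of these genes are switched on by interleukin 1, tumour necrosis factor and toll-like receptors through NF-kB and C/EBP factors, and by the interleukin 6 family through gp130 and STAT3. Arrays measured RNA, not secreted protein.

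Promoters of 7 members are printed so that the letters of sites known to serve these factors can be seen beside the values. Cxcl1, Cxcl10, Il1rn, Ptx3 and Ccl8 were called in at least 1 comparison, and Cxcl2 and Il6, which were not, are shown for their kappaB letters. Each is 120 bases, read 5′ to 3′ on the strand of the gene and ending at the base before the RefSeq start (GRCm38.p6). Capitals mark matches on either strand to GGGNNTTNCC, the kappaB letters, in Cxcl1, Cxcl2, Cxcl10, Il6 and Il1rn (at 1 of its starts), to TTGCNNAA, the C/EBP letters, in Ptx3, and to TATAAA in Ccl8. In these stretches no marked matches overlap.
Cxcl1 chr5:90891125-90891244 (+): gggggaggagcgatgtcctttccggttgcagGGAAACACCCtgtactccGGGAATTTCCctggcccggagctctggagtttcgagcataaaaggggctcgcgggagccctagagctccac
Cxcl2 chr5:90903779-90903898 (+): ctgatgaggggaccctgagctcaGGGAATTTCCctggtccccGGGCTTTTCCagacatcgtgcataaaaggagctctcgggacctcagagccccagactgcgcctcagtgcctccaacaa
Cxcl10 chr5:92348890-92349009 (-): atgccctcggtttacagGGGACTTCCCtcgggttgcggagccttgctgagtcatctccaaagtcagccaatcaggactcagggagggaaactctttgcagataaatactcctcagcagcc
Il6 chr5:30012994-30013113 (+): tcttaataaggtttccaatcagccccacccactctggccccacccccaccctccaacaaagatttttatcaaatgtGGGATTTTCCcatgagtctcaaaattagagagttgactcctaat
Il1rn chr2:24345251-24345370 (+): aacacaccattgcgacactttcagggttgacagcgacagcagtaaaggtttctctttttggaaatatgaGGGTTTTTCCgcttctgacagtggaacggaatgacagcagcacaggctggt
Ptx3 chr3:66219767-66219886 (+): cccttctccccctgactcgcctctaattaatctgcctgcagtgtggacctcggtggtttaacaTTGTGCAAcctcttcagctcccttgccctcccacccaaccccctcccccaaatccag
Ccl8 chr11:82115065-82115184 (+): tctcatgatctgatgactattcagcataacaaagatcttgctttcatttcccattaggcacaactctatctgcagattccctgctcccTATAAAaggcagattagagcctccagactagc
Promoters of 250 bases before to 50 after the start were given for 28 members, with 35 starts. GGGNNTTNCC was found in 10 of the 35 (28.6%), belonging to 9 genes, against 4.79% of 32851 promoters of all genes. TTGCNNAA was found in 22.9% of member promoters and 10.8% of all promoters, and the AP-1 letters TGANTCA in 20% and 7.81%. The interferon response letters GAAANNGAAA were found in 8.57% and 3.44%, and TATAAA in 28.6% and 13.6%. These shares describe letters in a window and not binding. In Ccl20 a pair of kappaB matches overlap each other, and in Il1rn the same match lies in windows of neighbouring starts.

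Values are log2 signals of the Robust Multichip Average (RMA), which normalizes arrays to each other and summarises the probes of a probe set. The 8 array medians lay between 5.37 and 5.41. A difference was called when it reached 1.5-fold with a Benjamini-Hochberg adjusted p under 0.25, the study's thresholds, here from limma fitted over all 45037 probe sets, and a stricter level used an adjusted p under 0.05. The Rb1 probe set with the higher signal had log2 signals of 4.98 and 5.45 in Cre Recurred, 6.21 and 5.72 in Cre Naïve, 8.21 and 8.78 in GFP Recurred and 7.98 and 8.07 in GFP Naïve cells, so each Cre array lay below each GFP array. Whether this probe set covers the deleted exon was not tested. Of 12 fibroblast markers, 11 lay between 8.39 and 13.84 on all arrays, such as Vim between 13.17 and 13.58, while Fap had 3.65 and 5.24 in Cre Recurred, 7.45 and 5.76 in Cre Naïve, 6.48 and 7.18 in GFP Recurred and 6.86 and 5.97 in GFP Naïve cells. Pdgfra, Pdgfrb and Dcn were lowest on Cre Recurred replicate 1, at 9.93, 10.20 and 10.95. Of 10 macrophage and myeloid markers 7 lay below the median on every array, with Ptprc, the leukocyte antigen CD45, between 2.95 and 3.19. The other 3 were Cd14, between 8.88 and 9.94, Csf1r, between 6.37 and 8.19, and Lyz2, between 4.45 and 6.92 with its highest signal on GFP Naïve replicate 1, and none of the 10 was called in any comparison, Fcgr1, Csf1r and Mrc1 having the smallest p between Cre Recurred and Cre Naïve cells. The replicates did not all lie closest to each other, since Cre Naïve replicate 2 correlated with Cre Recurred replicate 2 at 0.9917 (Pearson's r over probe sets) and with Cre Naïve replicate 1 at 0.9855. The values carry no detection call. Measured as a guide to background, 13 genes restricted to other tissues had signals between 2.25 and 6.25, and 9 members lay at or below 6.25 on every array. A fold change that involves signals in this range compares signals that were not shown to be above background, and its size is limited by that floor. In bulk RNA, fewer cells that make a transcript and less of it in each cell cannot be told apart.

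Many members had their lowest signals in the Cre Recurred cells. Relative to the mean of the 8 arrays, the median member lay at -0.73 and -0.41 on the Cre Recurred arrays, 0.20 and -0.14 on the Cre Naïve arrays, 0.07 and 0.51 on the GFP Recurred arrays and 0.20 and 0.15 on the GFP Naïve arrays. For 14 of 38 members both Cre Recurred arrays lay below the other 6 arrays, as was the case for 7.37% of all probe sets, and for 1 member, Il34, both lay above, as for 11.9% of all probe sets. These 14 were 6 chemokines (Ccl8, Ccl11, Cxcl2, Cxcl12, Cxcl14 and Cxcl16), 4 interleukins or receptors (Il1rn, Il1r1, Il6st and Il33), Csf3 and Tslp among the growth factors, and the acute phase genes Ptx3 and Saa3. For Saa3 the margin was narrow, with 13.2536 on Cre Recurred replicate 2 and 13.2574 on Cre Naïve replicate 2. Cxcl14 lay within the range of the tissue-restricted genes on all arrays. These counts of 14 and 1 carry no test and were chosen after the values were seen.

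**Figure D1:**
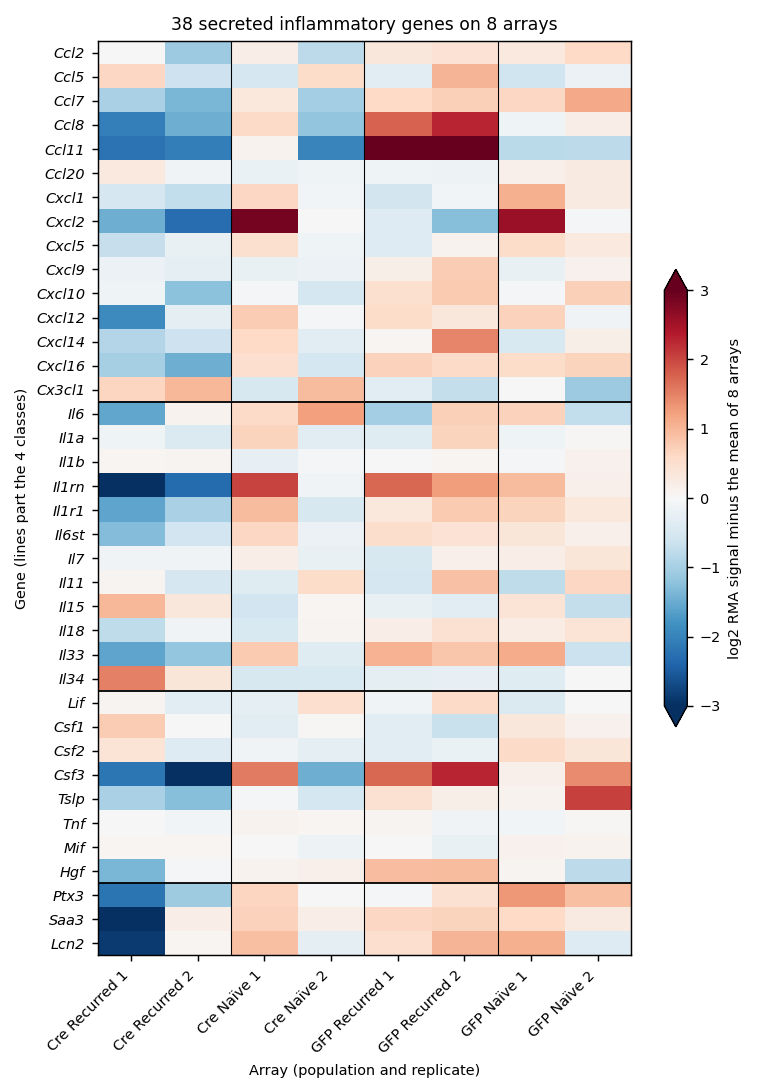
Log2 RMA signal of 38 members (rows, in 4 classes divided by lines) on 8 arrays (columns), as the difference from each gene's mean over the arrays, with colours ending at -3 and 3. Blue cells for Ccl8, Ccl11, Il1rn and Csf3 fill both Cre Recurred columns, and Ccl11 is darkest red on both GFP Recurred arrays.

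The largest number of calls came from the recurred populations, which asks how cells that grew out after CDDP differ by RB status. Of 38 members, 18 were called between Cre Recurred and GFP Recurred cells, against 8.85% of all probe sets tested. Of these 16 were lower, with 4.78% of all probe sets called lower, and 2 were higher, Csf1 and Il34, with 4.08% called higher. By class, 8 of 15 chemokines, 6 of 12 interleukins and receptors, 3 of 8 growth factors and other cytokines and 1 of 3 acute phase genes were called. The median log2 fold change over the members was -0.85, beside 0.05 over all probe sets. At the stricter level 2 members were called, Ccl11 and Ccl8, with 0.722% of all probe sets. The count rested on 3 arrays: it was 0 without GFP Recurred replicate 2, 1 without Cre Recurred replicate 1 (Ccl11) and 2 without GFP Recurred replicate 1 (Ccl11 and Ccl8). The calls over all probe sets dropped with it, to 0.0933%, 0.5995% and 0.7683% of those tested. With any other array left out, the count was between 18 and 21.

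**Figure D2:**
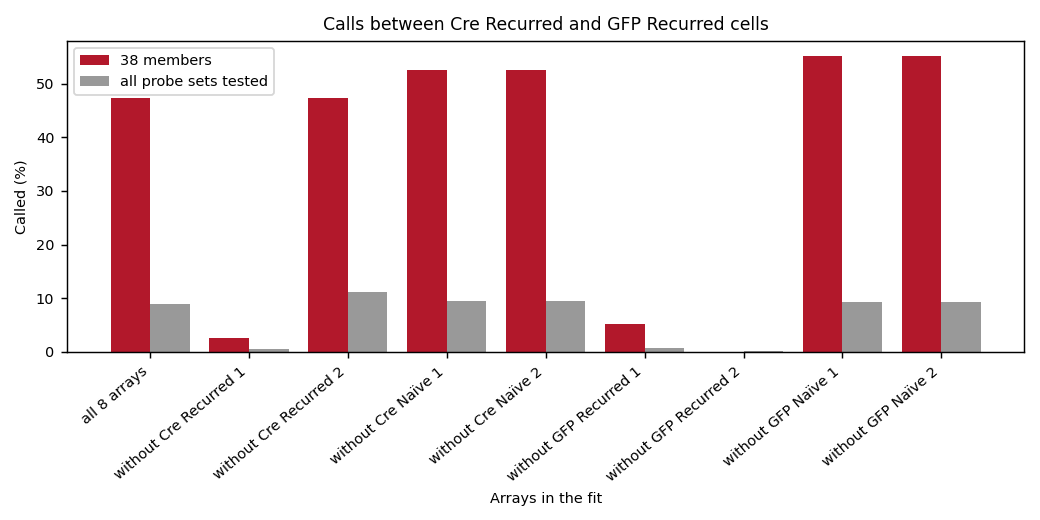
Percent called between Cre Recurred and GFP Recurred cells with all 8 arrays and with each array left out in turn, for the 38 members (red bars) and for all probe sets tested (grey bars). The members' bar stands above the grey bar with all arrays (18 members, against 8.85% of probe sets) and is at 0 without GFP Recurred replicate 2.

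Among the CC chemokines, Ccl11, Ccl8 and Ccl7 were lower in the Cre Recurred cells. These genes, with Ccl2 and Ccl5, lie on chromosome 11. Ccl11 encodes eotaxin, which draws eosinophils, and had log2 signals of 3.90 and 4.04 in Cre Recurred, 6.21 and 4.14 in Cre Naïve, 9.65 and 10.32 in GFP Recurred and 5.31 and 5.32 in GFP Naïve cells. Both GFP Recurred arrays stood above all others, both Cre Recurred arrays stood below, and Cre Naïve replicate 2 lay near the Cre Recurred arrays. The GFP Recurred arrays were the ones above the range of the tissue-restricted genes. Its log2 fold change, Cre Recurred over GFP Recurred, was -6.01 (standard error, SE, 0.59, adjusted p = 0.0216 from limma). Ccl8, a monocyte chemoattractant of the MCP family, had 6.59 and 7.17 in Cre Recurred, 9.21 and 7.46 in Cre Naïve, 10.40 and 10.92 in GFP Recurred and 8.50 and 8.83 in GFP Naïve cells. Its arrays of the recurred populations did not overlap, and the log2 fold change was -3.78 (SE 0.53, adjusted p = 0.0429). Ccl7, another MCP chemokine, had 10.13 and 9.73 in Cre Recurred, 11.42 and 10.09 in Cre Naïve, 11.69 and 11.82 in GFP Recurred and 11.73 and 12.23 in GFP Naïve cells. Its Cre Recurred arrays lay below all GFP arrays, while Cre Naïve replicate 2 lay between the Cre Recurred arrays, and the log2 fold change was -1.82 (adjusted p = 0.0939). Ccl2, the main monocyte attractant through Ccr2, was high everywhere, with 12.51 and 11.41 in Cre Recurred, 12.70 and 11.70 in Cre Naïve, 12.84 and 12.92 in GFP Recurred and 12.78 and 13.08 in GFP Naïve cells, and was not called (-0.92, adjusted p = 0.329). Ccl5, which attracts T cells and monocytes, had 10.69 and 9.43 in Cre Recurred, 9.55 and 10.62 in Cre Naïve, 9.75 and 11.08 in GFP Recurred and 9.47 and 9.90 in GFP Naïve cells, in overlapping groups. Ccl20, the ligand of Ccr6, lay below the median of every array, with 5.30 and 4.88 in Cre Recurred, 4.80 and 4.87 in Cre Naïve, 4.87 and 4.85 in GFP Recurred and 5.15 and 5.27 in GFP Naïve cells. The Ccl11 call was lost only without GFP Recurred replicate 2 (adjusted p = 0.254), that of Ccl8 without this array or Cre Recurred replicate 1, and that of Ccl7 without either of these or GFP Recurred replicate 1, with adjusted p up to 0.346 for Ccl8 and 0.443 for Ccl7.

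**Figure D3:**
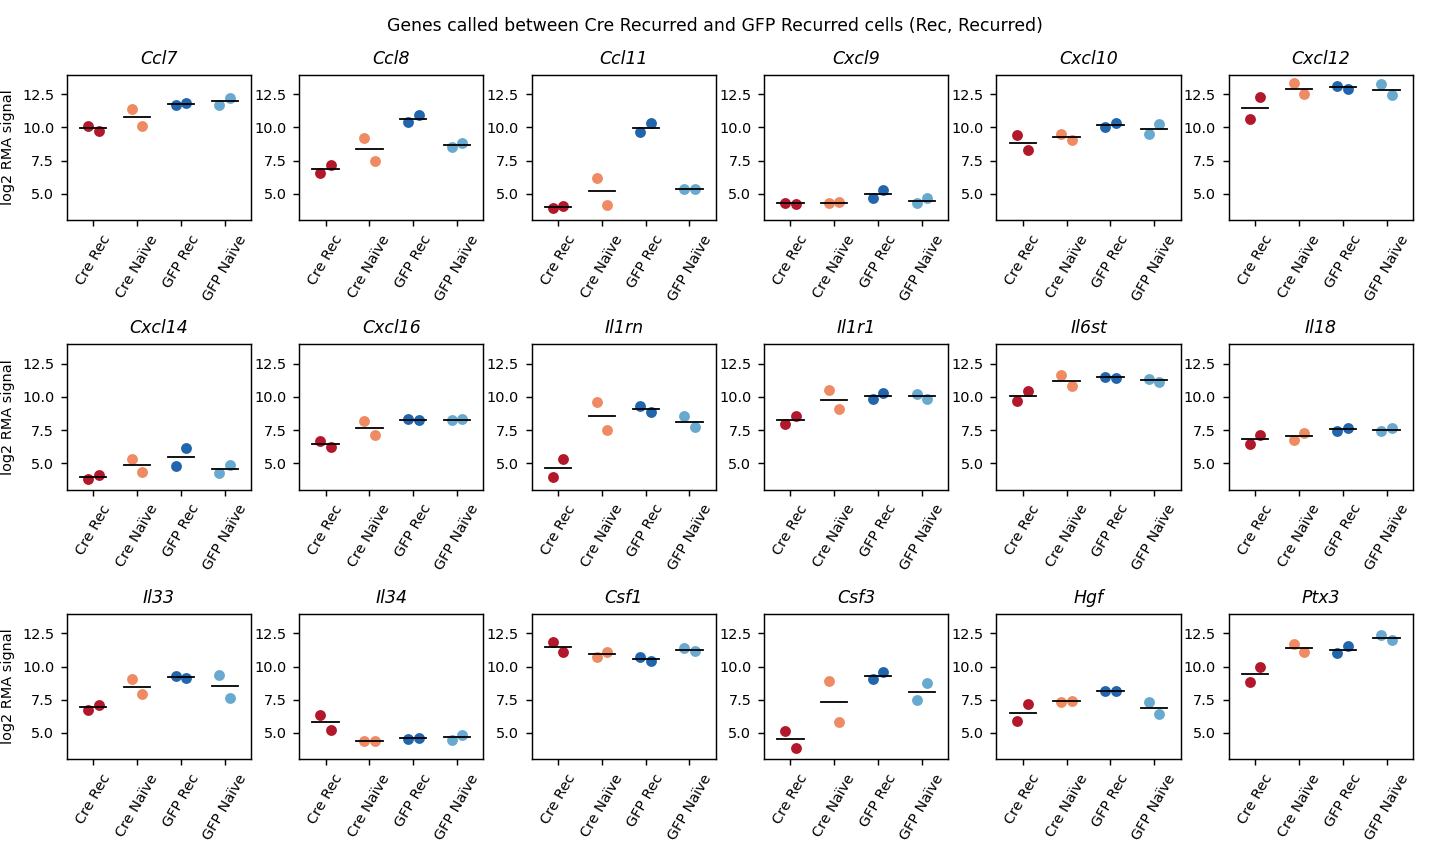
Log2 RMA signal (vertical axis, 3 to 14) of the 18 members called between Cre Recurred and GFP Recurred cells, with a point for each array and a line at the mean of 2 arrays, in Cre Recurred, Cre Naïve, GFP Recurred and GFP Naïve cells (Rec stands for Recurred). Ccl11 lies at 3.90 and 4.04 in Cre Recurred cells and at 9.65 and 10.32 in GFP Recurred cells, while Csf1 and Il34 are the genes with Cre Recurred points above GFP Recurred points.

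Of the CXC chemokines, 5 were lower in Cre Recurred than in GFP Recurred cells. Cxcl16, a membrane-bound ligand of Cxcr6, had log2 signals of 6.68 and 6.20 in Cre Recurred, 8.17 and 7.14 in Cre Naïve, 8.35 and 8.23 in GFP Recurred and 8.23 and 8.34 in GFP Naïve cells. Both Cre Recurred arrays lay below the other 6, and the log2 fold change was -1.85 (SE 0.32, adjusted p = 0.0599), with -3.56 at its second probe set (adjusted p = 0.0329). Cxcl12, which holds leukocytes and progenitors in tissue through Cxcr4, had 10.67 and 12.29 in Cre Recurred, 13.33 and 12.53 in Cre Naïve, 13.13 and 12.93 in GFP Recurred and 13.26 and 12.47 in GFP Naïve cells. Its Cre Recurred arrays differed from each other by more than any other population did, and the log2 fold change of -1.55 (adjusted p = 0.211) stood beside -1.64 and 0.13 at its other probe sets. Cxcl14, a chemokine of epithelia and fibroblasts, had 3.84 and 4.09 in Cre Recurred, 5.30 and 4.35 in Cre Naïve, 4.76 and 6.17 in GFP Recurred and 4.25 and 4.87 in GFP Naïve cells, with -1.50 (adjusted p = 0.195) and -3.14 at its second probe set (adjusted p = 0.0786). Cxcl10 and Cxcl9 are interferon-induced ligands of Cxcr3. Cxcl10 had 9.42 and 8.30 in Cre Recurred, 9.51 and 9.02 in Cre Naïve, 10.01 and 10.33 in GFP Recurred and 9.48 and 10.24 in GFP Naïve cells, with -1.31 (adjusted p = 0.171). Cxcl9 lay below the median of every array, with 4.32 and 4.23 in Cre Recurred, 4.29 and 4.33 in Cre Naïve, 4.67 and 5.25 in GFP Recurred and 4.27 and 4.64 in GFP Naïve cells, and had -0.69 (adjusted p = 0.173) at the probe set used and 0.02 at the other. Cxcl14 and Cxcl9 lay within the range of the tissue-restricted genes on all arrays. The Cxcl12 call was lost with a trended and robust prior, and that of Cxcl9 with the mean of a gene's probe sets. The calls of all 5 genes were lost without either GFP Recurred array or Cre Recurred replicate 1, with adjusted p up to 0.361 for Cxcl16 and 0.644 for Cxcl12, and those of Cxcl9, Cxcl10 and Cxcl14 also without Cre Recurred replicate 2.

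The neutrophil attractants Cxcl1, Cxcl2 and Cxcl5, on chromosome 5 as are Cxcl9 and Cxcl10, were not called between the recurred populations. They act on Cxcr2. Cxcl2 had log2 signals of 4.28 and 3.47 in Cre Recurred, 8.63 and 5.77 in Cre Naïve, 5.37 and 4.47 in GFP Recurred and 8.33 and 5.69 in GFP Naïve cells. Replicate 1 was the higher array in every population, and both naïve populations lay above both recurred ones. All recurred arrays of Cxcl2 and replicate 2 of both naïve populations lay within the range of the tissue-restricted genes. By limma on all 8 arrays without the replicate number as a block, no comparison called Cxcl2 (-1.05, adjusted p = 0.702, Cre Recurred over GFP Recurred). Between the recurred populations Cxcl2 was called by a SAM-type statistic, the study's kind of test, and by limma on the compared arrays alone. With the block, it was called in Cre Recurred cells against both naïve populations. Cxcl1 had 11.09 and 10.86 in Cre Recurred, 12.21 and 11.51 in Cre Naïve, 11.03 and 11.51 in GFP Recurred and 12.67 and 11.86 in GFP Naïve cells, and Cxcl5 had 11.54 and 12.002 in Cre Recurred, 12.70 and 12.11 in Cre Naïve, 11.84 and 12.34 in GFP Recurred and 12.77 and 12.52 in GFP Naïve cells. Cxcl1 overlapped between Cre Recurred and GFP Recurred cells, with -0.30 (adjusted p = 0.734), and so did Cxcl5 with -0.32 (adjusted p = 0.633). Cx3cl1, fractalkine, a ligand for monocytes and T cells, had 8.70 and 9.06 in Cre Recurred, 7.58 and 9.02 in Cre Naïve, 7.76 and 7.34 in GFP Recurred and 8.08 and 6.99 in GFP Naïve cells. Both Cre Recurred arrays lay above both GFP Recurred arrays, the log2 fold change was 1.33 (adjusted p = 0.256), which was not called, and Cre Naïve replicate 2 shared the level of the Cre Recurred arrays.

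In the interleukin 1 family, the antagonist Il1rn, the receptor Il1r1 and the cytokines Il33 and Il18 were lower in the Cre Recurred cells. The cytokines Il1a and Il1b were not called. Il1rn encodes the interleukin 1 receptor antagonist, which blocks the receptor, and had log2 signals of 3.92 and 5.30 in Cre Recurred, 9.62 and 7.50 in Cre Naïve, 9.31 and 8.84 in GFP Recurred and 8.54 and 7.74 in GFP Naïve cells. Both Cre Recurred arrays lay below the other 6, the nearest of which was Cre Naïve replicate 2, and lay within the range of the tissue-restricted genes. Relative to GFP Recurred cells, the log2 fold change was -4.47 (SE 0.73, adjusted p = 0.0524), with -2.62 at both of its other probe sets. Il1r1, the signalling receptor, had 7.97 and 8.58 in Cre Recurred, 10.51 and 9.07 in Cre Naïve, 9.86 and 10.33 in GFP Recurred and 10.21 and 9.87 in GFP Naïve cells and a log2 fold change of -1.82 (adjusted p = 0.113). Its second probe set gave 0.22. Il33, a nuclear alarmin released from damaged cells, had 6.71 and 7.11 in Cre Recurred, 9.06 and 7.90 in Cre Naïve, 9.32 and 9.11 in GFP Recurred and 9.39 and 7.63 in GFP Naïve cells. Both Cre Recurred arrays were again the lowest, with -2.31 (SE 0.58, adjusted p = 0.115). Il18 had 6.46 and 7.12 in Cre Recurred, 6.76 and 7.30 in Cre Naïve, 7.44 and 7.68 in GFP Recurred and 7.44 and 7.63 in GFP Naïve cells, with -0.77 (adjusted p = 0.21). Il1a, which lay below the median of every array, between 4.27 and 5.38, had -0.44 (adjusted p = 0.662), and Il1b, between 5.73 and 6.10, had 0.04 (adjusted p = 0.926). Both Il1a and Il1b lay within the range of the tissue-restricted genes on all arrays, so they were not shown to be above background. The 4 calls were lost without either GFP Recurred array or Cre Recurred replicate 1, with adjusted p up to 0.349 for Il1rn, 0.488 for Il1r1, 0.448 for Il33 and 0.658 for Il18.

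Il6st and Il34 were the other interleukin genes called. Il6st encodes gp130, the signalling receptor shared by the interleukin 6 family, and had log2 signals of 9.71 and 10.43 in Cre Recurred, 11.63 and 10.83 in Cre Naïve, 11.54 and 11.44 in GFP Recurred and 11.37 and 11.17 in GFP Naïve cells. Both Cre Recurred arrays were the lowest, and the log2 fold change was -1.42 (SE 0.31, adjusted p = 0.0887), with values from -1.37 to -0.35 at its other probe sets. The members that are ligands of gp130 receptors, Il6, Il11 and Lif, were not called. Il6, the pro-inflammatory interleukin of the family, had 8.43 and 10.08 in Cre Recurred, 10.57 and 11.20 in Cre Naïve, 8.96 and 10.70 in GFP Recurred and 10.67 and 9.23 in GFP Naïve cells, with -0.57 (adjusted p = 0.78) and overlapping arrays of the recurred populations. Il11 lay between 5.77 and 7.42, with -0.40 (adjusted p = 0.806), and Lif had 7.88 and 7.45 in Cre Recurred, 7.51 and 8.29 in Cre Naïve, 7.68 and 8.36 in GFP Recurred and 7.37 and 7.79 in GFP Naïve cells, with -0.35 (adjusted p = 0.674). Il34, a second ligand of the macrophage receptor Csf1r, was higher, with 6.36 and 5.21 in Cre Recurred, 4.36 and 4.38 in Cre Naïve, 4.55 and 4.60 in GFP Recurred and 4.47 and 4.83 in GFP Naïve cells. The Cre Recurred arrays stood above all others, and the log2 fold change was 1.21 (SE 0.34, adjusted p = 0.139). Apart from Cre Recurred replicate 1, at 6.36, all arrays of Il34 lay within the range of the tissue-restricted genes. Il15, which sustains natural killer cells, had 5.22 and 4.55 in Cre Recurred, 3.65 and 4.27 in Cre Naïve, 3.99 and 3.89 in GFP Recurred and 4.61 and 3.50 in GFP Naïve cells and 0.95 (adjusted p = 0.295), and Il7, a survival factor of lymphocytes, lay between 4.20 and 5.06, with 0.06 (adjusted p = 0.935). The Il6st and Il34 calls were lost without either GFP Recurred array or Cre Recurred replicate 1, with adjusted p up to 0.416 and 0.487.

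Of the colony-stimulating factors, Csf3 was lower in Cre Recurred than in GFP Recurred cells, Csf1 was higher and Csf2 was not called. Csf3, granulocyte colony-stimulating factor, had log2 signals of 5.13 and 3.84 in Cre Recurred, 8.87 and 5.83 in Cre Naïve, 9.02 and 9.58 in GFP Recurred and 7.46 and 8.72 in GFP Naïve cells. Both Cre Recurred arrays lay below the other 6 and within the range of the tissue-restricted genes, Cre Naïve replicate 2 came next, and the log2 fold change over GFP Recurred cells was -4.81 (SE 0.96, adjusted p = 0.0752). Csf1, the macrophage growth factor, was higher, with 11.82 and 11.07 in Cre Recurred, 10.75 and 11.09 in Cre Naïve, 10.73 and 10.39 in GFP Recurred and 11.39 and 11.17 in GFP Naïve cells, a log2 fold change of 0.89 (SE 0.27, adjusted p = 0.161) and 1.24 to 2.22 at its other 3 probe sets. The GFP Recurred arrays were its lowest, and the Cre Recurred arrays overlapped both naïve populations. Csf2, which acts on granulocytes and macrophages, had 5.78 and 4.99 in Cre Recurred, 5.25 and 5.06 in Cre Naïve, 5.03 and 5.16 in GFP Recurred and 5.94 and 5.73 in GFP Naïve cells and 0.29 (adjusted p = 0.635). Hgf, the ligand of the Met receptor, had 5.86 and 7.18 in Cre Recurred, 7.34 and 7.39 in Cre Naïve, 8.15 and 8.18 in GFP Recurred and 7.30 and 6.44 in GFP Naïve cells. Its GFP Recurred arrays were the highest, and the log2 fold change was -1.65 (adjusted p = 0.125), with -1.19 and -1.56 at its other probe sets. Tslp, a cytokine that acts on dendritic cells, had 4.45 and 4.14 in Cre Recurred, 5.39 and 4.90 in Cre Naïve, 5.88 and 5.61 in GFP Recurred and 5.53 and 7.47 in GFP Naïve cells and missed the threshold with -1.45 (adjusted p = 0.251). Its arrays other than GFP Naïve replicate 2 lay within the range of the tissue-restricted genes. Tnf, between 5.31 and 5.51, and Mif, between 13.09 and 13.42, had the narrowest ranges of this class, with -0.04 and 0.16 (adjusted p = 0.908 and 0.626). The calls of Csf3, Csf1 and Hgf were lost without either GFP Recurred array or Cre Recurred replicate 1, with adjusted p up to 0.416, 0.581 and 0.474.

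All 3 acute phase genes were lower on both Cre Recurred arrays than on both GFP Recurred arrays, and Ptx3 was called. Ptx3 encodes the long pentraxin, which binds microbes and complement, and had log2 signals of 8.86 and 9.99 in Cre Recurred, 11.70 and 11.08 in Cre Naïve, 11.02 and 11.52 in GFP Recurred and 12.37 and 11.97 in GFP Naïve cells. The Cre Recurred arrays lay below the other 6 and the log2 fold change was -1.85 (SE 0.40, adjusted p = 0.0867). A second probe set of it gave -0.14. Saa3, a serum amyloid A protein, had 9.78 and 13.25 in Cre Recurred, 13.75 and 13.26 in Cre Naïve, 13.69 and 13.73 in GFP Recurred and 13.67 and 13.34 in GFP Naïve cells, and Lcn2, a lipocalin that binds bacterial siderophores, had 8.63 and 11.56 in Cre Recurred, 12.40 and 11.23 in Cre Naïve, 12.01 and 12.53 in GFP Recurred and 12.57 and 11.11 in GFP Naïve cells. In both, Cre Recurred replicate 1 was far below every other array and Cre Recurred replicate 2 lay near the others, so that the log2 fold changes of -2.19 and -2.18 had SEs of 0.94 and 0.94 (adjusted p = 0.305 and 0.305). The Ptx3 call was lost without either GFP Recurred array or Cre Recurred replicate 1, with an adjusted p up to 0.445. Without Cre Recurred replicate 2, Saa3 and Lcn2 were called as well.

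**Figure D4:**
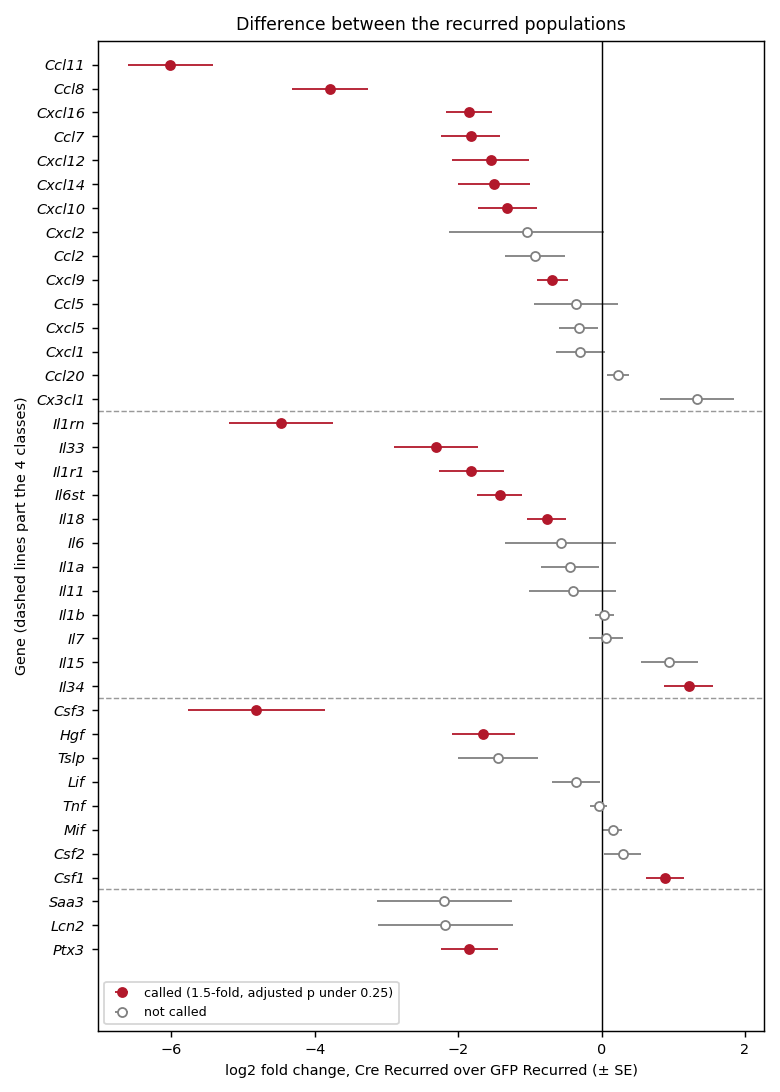
Log2 fold change of Cre Recurred over GFP Recurred cells (horizontal axis) with its standard error for 38 members in 4 classes, filled where called. Ccl11 lies furthest left at -6.01, and 2 filled points lie right of 0, Il34 and Csf1.

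Recurrence itself was compared within each RB status, in Cre Recurred against Cre Naïve and in GFP Recurred against GFP Naïve cells, which share no array. In the cells without RB, 2 of 38 members were called, both lower, against 1.16% of all probe sets called and 0.775% called lower. These were Il1rn, with a log2 fold change of -3.95 (SE 0.73, adjusted p = 0.179), and Ptx3, with -1.97 (SE 0.40, adjusted p = 0.208). Their other probe sets were not called, with -2.31 and -2.26 for Il1rn (adjusted p = 0.328 and 0.308) and -0.38 for Ptx3 (adjusted p = 0.563). The second probe set of Cxcl16 was called at -2.86 (adjusted p = 0.118), while the one used was not (-1.21, adjusted p = 0.303). A further 10 members had an unadjusted p under 0.05 (12 of 38 in all, against 12% of all probe sets), and Cxcl2, with -3.33, and Csf3, with -2.87, had the largest differences among them (adjusted p = 0.348 and 0.355). Il34, at 1.41, was the one of these that was higher (adjusted p = 0.274). The Cre Recurred arrays of Cxcl2 and Csf3 lay within the range of the tissue-restricted genes. The median over the members was -0.73, beside 0.05 over all probe sets. Neither Il1rn nor Ptx3 was called by a SAM-type statistic, the kind of test the study used, or with the compared arrays only. The count was 14 without Cre Naïve replicate 2 and 10 without Cre Recurred replicate 2. It was 1 without either GFP Naïve array, where Il1rn was the gene called, and 0 without Cre Naïve replicate 1, Cre Recurred replicate 1 or either GFP Recurred array.

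In the cells with RB, none of 38 members was called between GFP Recurred and GFP Naïve cells by limma, with 0.0133% of all probe sets, and 7 members had an unadjusted p under 0.05, against 5.52% of all probe sets. The SAM-type statistic called 4 (Ccl11, Ccl8, Hgf and Csf2). Ccl11 had the largest positive difference, with 4.67 (SE 0.59, adjusted p = 0.341), followed by Ccl8 with 2.00 and Hgf with 1.29 (adjusted p = 0.862 and 0.871). Their GFP Recurred arrays lay above all GFP Naïve arrays. The largest negative values were those of Cxcl2, Cxcl1, Ptx3, Tslp, Csf2 and Csf1, at -2.09, -0.99, -0.90, -0.76, -0.74 and -0.72. The GFP Recurred arrays of Cxcl2 and all arrays of Csf2 lay within the range of the tissue-restricted genes. The median was 0.02 over the members and 0.01 over all probe sets. Without Cre Naïve replicate 1, Cre Naïve replicate 2 or GFP Naïve replicate 2, the count was 1, Ccl11.

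**Figure D5:**
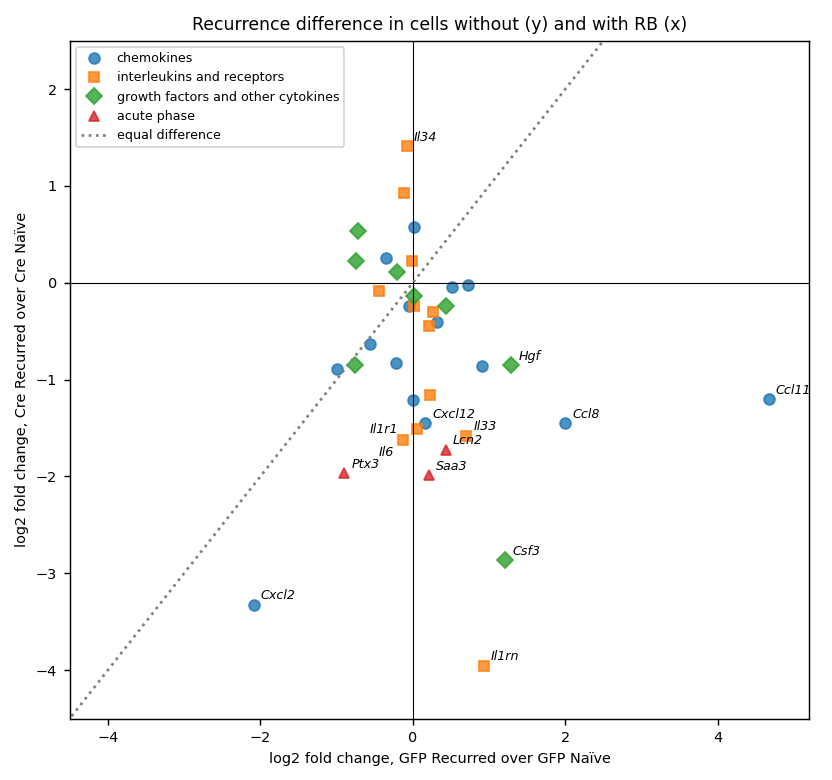
Log2 fold change of Cre Recurred over Cre Naïve cells (vertical axis) against GFP Recurred over GFP Naïve cells (horizontal axis) for 38 members, marked by class, with a dotted line where both are equal. Ccl11 lies at 4.67 in cells with RB and -1.20 in cells without, and Il1rn at -3.95 on the vertical axis.

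The interaction of RB status and recurrence, which tests whether the recurrence difference itself differs between Cre and GFP cells, called 1 of 38 members, Ccl11, against 0.4% of all probe sets. Its value was -5.87 (SE 0.84, adjusted p = 0.175 from limma). Il1rn had -4.88 and Ccl8 -3.45 (adjusted p = 0.283 and 0.295), and neither was called. Csf3 had -4.08, Hgf -2.14 and Csf1 1.25, with adjusted p of 0.402, 0.366 and 0.376. Another probe set of Hgf was called, at -1.88 (adjusted p = 0.222). The Cre arrays and the GFP Naïve arrays of Ccl11 all lay within the range of the tissue-restricted genes. Over the members, 14 had an unadjusted p under 0.05, against 10.3% of all probe sets. The count was 0 without GFP Naïve replicate 1, either GFP Recurred array or Cre Recurred replicate 1, 7 without Cre Naïve replicate 2 and 13 without Cre Recurred replicate 2.

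RB loss alone, in Cre Naïve against GFP Naïve cells, called no member and no probe set by limma (0% of 45037), and the SAM-type statistic called none of the members either. An unadjusted p under 0.05 was found for 2.57% of all probe sets and for 3 members, Ccl7 (-1.23), Csf2 (-0.68) and Tslp (-1.36), with an adjusted p of 0.997 each. The median over the members was -0.15. Without Cre Naïve replicate 1, Ccl7 was called. This array lay above Cre Naïve replicate 2 in Ccl7, Ccl8, Ccl11, Il1rn and Csf3.

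Against the GFP Naïve cells, which had neither Cre nor CDDP, 9 of 38 members were lower in Cre Recurred cells, with 3.05% of all probe sets called and 2.07% called lower, and no member was higher. They were the chemokines Ccl7, Cxcl1 and Cxcl16, the interleukin genes Il1rn, Il1r1 and Il6st, the cytokines Csf3 and Tslp, and Ptx3. Ptx3 had a log2 fold change of -2.75 (SE 0.40, adjusted p = 0.0791), Il1rn -3.54 (adjusted p = 0.158) and Csf3 -3.60 (adjusted p = 0.228). Cxcl1, which was not called between the recurred populations, had -1.29 (adjusted p = 0.224), and Tslp had -2.21 (adjusted p = 0.213). Apart from GFP Naïve replicate 2, at 7.47, all arrays of Tslp lay within the range of the tissue-restricted genes. The second probe set of Cxcl16 was called too (-3.59, adjusted p = 0.0555), but no other probe set of Cxcl1, Il1rn, Il1r1, Il6st or Ptx3 was. The calls of Cxcl1, Il6st and Tslp were lost by the SAM-type statistic and with the compared arrays only, that of Cxcl1 also without probe sets of shared probes, and those of Tslp and Csf3 with a trended and robust prior. Ccl11, at 3.90 and 4.04 in Cre Recurred and 5.31 and 5.32 in GFP Naïve cells, was not called. This comparison shares the Cre Recurred arrays with that of the recurred populations. The count was 0 without Cre Recurred replicate 1, 1 without either GFP Recurred array (Ptx3), 3 without GFP Naïve replicate 2, 4 without GFP Naïve replicate 1 and 16 without either Cre Naïve array.

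Genes of the pathways that carry or control these signals were counted on lists that hold no member, between Cre Recurred and GFP Recurred cells, where 8.85% of all probe sets were called, 4.78% lower and 4.08% higher. Of 31 receptors of the members, 6 were called, 5 lower and 1 higher (Ccr1, 0.69). The lower ones included Lifr and Osmr, which pair with gp130, at -2.23 and -1.30 (adjusted p = 0.0524 and 0.197), Il1rap, the partner of Il1r1, at -1.33, Csf2ra, a receptor chain of Csf2, at -2.14, and Crlf2, the receptor of Tslp, at -0.67. Of 32 genes of NF-kB and toll-like receptor signalling, 9 were called, 7 lower and 2 higher. The lower ones were the receptor Tlr2 at -2.76, Birc3 at -2.24, Bcl3 at -1.01, Zfp36 at -0.92, Map3k14 at -0.86, Nfkbiz at -0.74 and Relb at -0.73. Higher were Cyld, a deubiquitinase that restrains NF-kB signalling, at 0.99, and Rel at 0.73. Of 18 genes of JAK-STAT and C/EBP signalling, 6 were called, all lower, namely Socs3, an inhibitor induced by STAT3, at -1.59, Jak2 at -1.19, Cebpd at -1.06, Stat3 at -0.95, Stat5a at -0.91 and Cebpb at -0.68. Of 46 other chemokines and cytokines, 9 were called, 5 lower and 4 higher, and the largest difference was that of Chil1, a secreted chitinase-like protein, at -5.72 (adjusted p = 0.0329). Il16 at -3.25, Kitl at -1.56, Orm1 at -1.36 and Ctf1, a gp130 ligand, at -0.63 were the others that were lower, and Ppbp at 1.82, Cxcl11 at 1.55, Ccl17 at 1.11 and Ccl25 at 0.91 were higher. Ccr1, between 3.27 and 4.37, and Orm1, between 3.30 and 5.08, lay below the median of every array. Within the range of the tissue-restricted genes lay the Cre Recurred signals of Chil1 (3.71 and 4.48), Il16 (4.79 and 5.98) and Csf2ra (4.46 and 4.57). All recurred arrays of Cxcl11, between 4.45 and 6.18, lay in that range too. So did the GFP Recurred signals of Ppbp (4.40 and 5.10), Ccl17 (4.93 and 5.15) and Rel (5.66 and 5.27). The Cre Recurred signals of Map3k14 (5.83 and 6.25) lay there as well. Ppbp had 6.22 and 6.92 in Cre Recurred, 8.83 and 6.84 in Cre Naïve and 7.07 and 8.24 in GFP Naïve cells. The median log2 fold changes of the 4 lists were -0.15, -0.30, -0.53 and 0.03. Without GFP Recurred replicate 2 none of these 4 lists had a call. Without GFP Recurred replicate 1 the counts were 0, 2, 0 and 2, and without Cre Recurred replicate 1 they were 0, 0, 0 and 2. In other comparisons, Lifr, Jak2 and Chil1 were also lower in Cre Recurred than in Cre Naïve cells, at -1.75, -0.96 and -3.51. Against GFP Naïve cells, where 3.05% of all probe sets were called, the 4 lists had 2, 3, 2 and 4 calls. All of these were lower in Cre Recurred cells, Jak1 at -0.69 among them, except Nfkb2 at 0.64 and Ccl3 at 0.80. Ccl3 lay below the median of every array, between 2.77 and 3.77. The interaction was called for Chil1 at -5.69 (adjusted p = 0.228).

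Some fibroblast and mesothelial markers were called in the same comparison, beside the 8.85% of all probe sets. Of 12 fibroblast markers, 5 were called, with a list median of -0.99 and with Fap at -2.39, Dcn at -1.60, Twist2 at -1.10 and Prrx1 at -1.05 lower and Thy1 at 0.91 higher. The summed signal of the list, on the log2 scale, ran from 15.30 to 16.05 in Cre Recurred, 16.10 to 16.24 in Cre Naïve, 16.22 to 16.44 in GFP Recurred and 16.04 to 16.08 in GFP Naïve cells. Of 7 mesothelial markers, Msln and Krt19 were higher, at 1.71 and 1.97, the other 5 were not called, the list median was 0.04, and 4 of the 7 lay below the median on every array. The summed signal of that list ran from 8.81 to 9.48 in Cre Recurred, 7.82 to 8.11 in Cre Naïve, 7.90 to 8.01 in GFP Recurred and 7.95 to 8.20 in GFP Naïve cells. Msln was also higher in Cre Recurred than in Cre Naïve cells, at 2.14. The GFP Recurred signals of Krt19 (4.86 and 4.71) lay within the range of the tissue-restricted genes. The Cre Recurred signals of Fap (3.65 and 5.24) lay in that range too. All 7 calls were lost without either GFP Recurred array or Cre Recurred replicate 1. No macrophage, lymphocyte, mast cell, endothelial or adipocyte marker was called in any comparison. Nearest to a call between Cre Recurred and Cre Naïve cells, by p, were Cd3e, Cd79a and Cd8a of lymphocytes, Cma1, Cpa3 and Tpsb2 of mast cells, Pecam1, Emcn and Tek of endothelium, Lep, Adipoq and Fabp4 of adipocytes, and Pmch, Gh and Prl of 13 genes restricted to other tissues. The part of these shifts in the members' differences was not tested.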

How the data were processed

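RNA of 4 populations of mouse adult fibroblasts was hybridized by the authors to Affymetrix mouse genome arrays, 2 per population. The values deposited by the authors are log2 RMA signals; the RMA software is not given in the sources used here. Of 45101 probe sets, 64 controls were left out, and 34945 of the other 45037 carried 1 gene symbol, 932 several and 9160 none. Comparisons were fitted with limma 3.58.1 (R 4.3.3), 1 mean per population, and tested on simulated data. Residual degrees of freedom were 4 and prior degrees of freedom 3.07. An exact permutation of 2 against 2 arrays cannot go below a two-sided p of 0.333 and was not used. The small number of arrays limits the precision, and no array was left out of the values reported.

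The members and lists were chosen with earlier results of these data known. Every member is named. Values on each array are given for members called in any comparison and for the 12 next by unadjusted p with at least 1.5-fold, and ranges for others. From other lists, every gene called in any comparison is named, and for a list with none the 3 with the smallest p in Cre Recurred against Cre Naïve cells. Alternatives were a trended and robust prior, a SAM-type statistic, cyclic loess, median centring, the compared arrays only, a replicate block, leaving out dim or shared-probe probe sets, the mean of a gene's probe sets, a stricter threshold and each array left out. Sequences came from RefSeq (GRCm38.p6). Figures were drawn with matplotlib 3.10.9.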

Additional observations from a re-analysis of the deposited data

Results flagged for a closer look

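The recurrence difference of Ccl11 differed between cells without and with RB by the test of the difference itself, with an interaction of -5.87 on the log2 scale (adjusted p = 0.175 from limma, and between 0.0035 and 0.806 over the alternatives). It was -1.20 in Cre and 4.67 in GFP cells, with both GFP Recurred arrays, at 9.65 and 10.32, above both GFP Naïve arrays. The Cre Recurred arrays at 3.90 and 4.04, Cre Naïve replicate 2 at 4.14, Cre Naïve replicate 1 at 6.21 and the GFP Naïve arrays at 5.31 and 5.32 lay within the range of genes restricted to other tissues (2.25 to 6.25), so they were not shown to be above background, and the negative value in Cre cells rested on Cre Naïve replicate 1. The call was lost without GFP Naïve replicate 1, Cre Recurred replicate 1 or either GFP Recurred array.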

How the results depend on the processing

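No difference of a named member that was called changed its sign under any alternative run. Cyclic loess, median centring, a trended and robust prior and leaving out dim or shared-probe probe sets kept each count of members called within 1.5 times. Between Cre Recurred and Cre Naïve cells, where 2 members were called, the count was 0 by the SAM-type statistic, 0 with the compared arrays only, 4 with the mean of a gene's probe sets and 0 at an adjusted p under 0.05. Between GFP Recurred and GFP Naïve cells, where none was called, it was 4 by the SAM-type statistic and 1 with the compared arrays only. At an adjusted p under 0.05 it was 2 between Cre Recurred and GFP Recurred cells, 0 between Cre Recurred and GFP Naïve cells and 0 for the interaction. With the mean of a gene's probe sets, the interaction had 2 (Ccl11 and Hgf). Leaving out 1 array at a time, the counts ran from 0 to 14 for Cre Recurred against Cre Naïve, from 0 to 1 for GFP Recurred against GFP Naïve, from 0 to 1 for Cre Naïve against GFP Naïve, from 0 to 21 for Cre Recurred against GFP Recurred, from 0 to 16 for Cre Recurred against GFP Naïve and from 0 to 13 for the interaction; the cause was not tested. Over all probe sets, the count of 3988 between the recurred populations was 42 without GFP Recurred replicate 2.

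The replicate numbers were not used to pair the arrays in the main fit. Same-numbered deviations from the population means correlated between -0.25 and 0.31. With 2 arrays per population these deviations mirror each other, so the values cannot decide whether some populations shared a mouse or an infection. With the number as a replicate block, the members called were 17 of the 18 between Cre Recurred and GFP Recurred cells (without Cxcl12), 11 between Cre Recurred and GFP Naïve cells (the 9, with Cxcl2 and Il18), 2 between Cre Recurred and Cre Naïve cells (Il1rn and, in place of Ptx3, Cxcl2), 0 in GFP Recurred against GFP Naïve and in Cre Naïve against GFP Naïve cells, and 1 for the interaction. Crossing the numbers, chosen after seeing the data, was run on the Cre Recurred and GFP Naïve arrays alone and gave 20 between these populations. The 11 with the block came from all 8 arrays, so these counts differ in more than the crossing.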
